A study of Homo sapiens with 15 samples.

Results

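The S47A addback line (KO_S47A) was set against the wild-type addback line (KO_WT) of the prostate cancer cell line C4-2, across all genes. The libraries were chosen by the genotype in their titles, which gave 3 of each line and so 6 of the 15 libraries of the series, each with 20806 gene entries. C4-2 is a castration-resistant line derived from the androgen-sensitive line LNCaP, and its poly(A) RNA was sequenced from 5 lines that the submitters call isogenic. KO_S47A, KO_S404A and KO_WT are the knockout of PNPLA2, which encodes adipose triglyceride lipase (ATGL), with the named ATGL protein put back, KO is that knockout with none, and Scramble is the control. All lines were kept in 5 mM glucose and 5% dialyzed serum. A genotype is represented by a single line, and the sources used here do not give its cloning history or the promoter of the addback. The labels do not say whether the libraries of a line are separate cultures, so a p-value covers the spread among these libraries only, and that spread may be technical.

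ATGL sits on lipid droplets and cuts the first fatty acid off triglyceride, with serine 47 as the nucleophile of its catalytic pair. ABHD5 activates it, G0S2 and HILPDA inhibit it, and hormone-sensitive lipase and monoglyceride lipase take the later steps. The fatty acids it frees can be burned in mitochondria, reused in membranes, or act as ligands of the PPAR receptors. The labels describe S47A ATGL as inactive in lipolysis, so the comparison asks which transcripts differ when the protein is present with and without that activity.

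The codon behind the substitution is shown because it is the designed difference between the 2 lines. In the GENCODE 29 reference transcript of PNPLA2 it is a TCG serine codon in exon 2 of 10, on the + strand at chr11:819857-819859 of GRCh38. The stretch chr11:819842-819874 is printed with that codon in capitals.
PNPLA2 codon 47: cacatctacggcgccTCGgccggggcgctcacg
It is the reference sequence, and the sources used here do not give the codons of the addback constructs.

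PNPLA2 itself was measured lower in every S47A library than in any wild-type addback library. It stood at 113, 110.2 and 164 CPM in KO_S47A libraries 1, 2 and 3, against 213, 207 and 241 in KO_WT, where CPM are counts scaled to a common library size with TMM factors. The groups did not overlap, and library 3 was the highest of both lines. The log2 fold change, here and below KO_S47A minus KO_WT, was −0.77 (95% interval −1.18 to −0.35). The edgeR quasi-likelihood test over all genes gave an unadjusted p of 0.00142 and an adjusted p of 0.998. With the replicate number as a block in the fit, the adjusted p was 0.439, and in a blocked fit of these 2 lines alone it was 0.0426. In every difference below, the amount of PNPLA2 transcript, the catalytic serine and the individual line cannot be told apart.

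**Figure D1:**
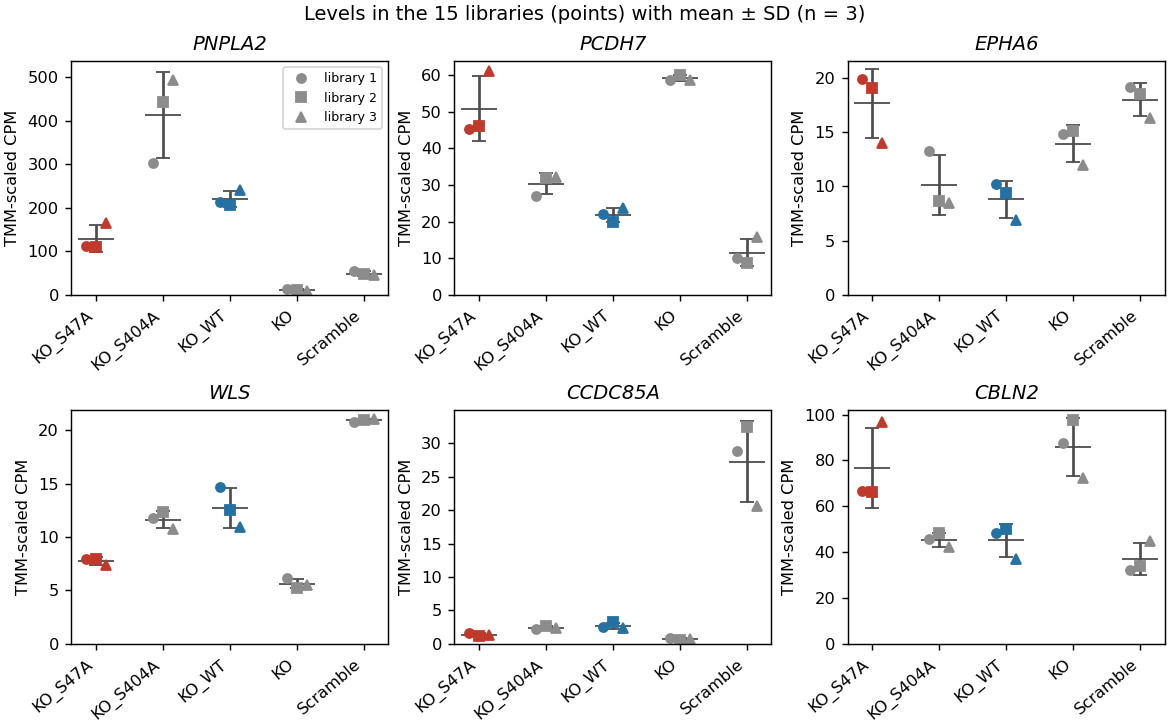
TMM-scaled CPM of 6 genes in each of the 15 libraries (points, with the shape giving the library number) with the mean and SD of each line (n = 3), on axes that start at 0. KO_S47A is red and KO_WT blue. PNPLA2 and WLS are lower in every KO_S47A library than in any KO_WT library, PCDH7, EPHA6 and CBLN2 are higher, and CCDC85A is lower at under 5 CPM in both lines.

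No gene differed between the 2 addback lines at an adjusted p under 0.05 in the edgeR fit without a block, which tested 14246 genes (0% called). The smallest adjusted p was 0.178. At an unadjusted p under 0.05 there were 309 genes (2.17%), 187 higher in KO_S47A (1.31%) and 122 lower (0.856%). DESeq2 called 4 genes, EPHA6, GPRASP1 and PCDH7 higher and WLS lower, and found 358 at an unadjusted p under 0.05. The median gene's 95% interval reached 0.36 to either side on the log2 scale, and 11204 genes (78.6%) had an interval lying wholly within 2-fold. The fit with the replicate number as a block called 3 genes (0.0211%), PCDH7 and EPHA6 higher (0.014%) and WLS lower (0.00702%), with 1324 at an unadjusted p under 0.05 (9.29%).

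**Figure D2:**
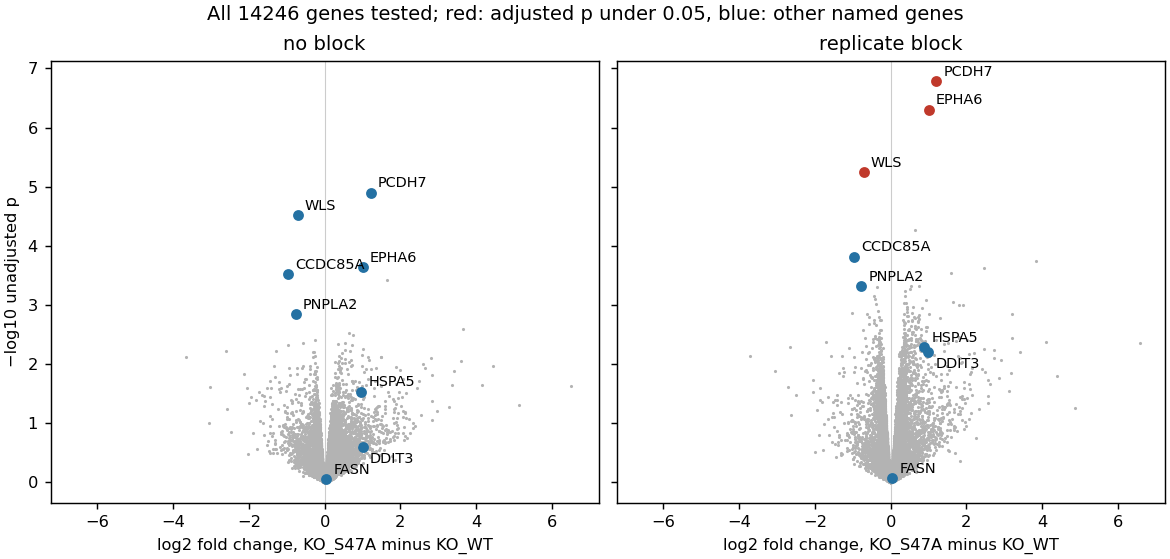
Log2 fold change of KO_S47A minus KO_WT (x axis) and −log10 of the unadjusted p (y axis) of the 14246 genes, without a block (left) and with the replicate number as a block (right). Red points have an adjusted p under 0.05, which holds for PCDH7, EPHA6 and WLS in the blocked fit, and blue points are other named genes.

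PCDH7, a protocadherin that mediates adhesion between cells, was higher in KO_S47A in the blocked test. It stood at 45.2, 46.1 and 61.1 CPM in KO_S47A libraries 1, 2 and 3, against 21.9, 19.9 and 23.7 in KO_WT. Every KO_S47A library was above every KO_WT library. The log2 fold change was 1.22 (95% interval 0.82 to 1.61), with an adjusted p of 0.178 by edgeR without a block and 0.00233 with it. The knockout without addback had 59.1 ± 0.765 CPM and Scramble 11.5 ± 3.72 CPM (SD, n = 3 each). Against KO, PCDH7 fell by 1.44 on the log2 scale in KO_WT (edgeR adjusted p = 0.00763), 1 of 4 genes called in that comparison (0.0281%). The difference of KO_S47A from KO was −0.22 (edgeR adjusted p = 0.485 without a block), in a comparison where that fit called 1 gene, PNPLA2 (0.00702%). With the block the same comparison called 10.6% of all genes higher in KO_S47A and 11.5% lower. The differences of KO_WT and of KO_S47A from KO use the same KO libraries.

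WLS, the carrier that takes Wnt ligands to the cell surface, was lower in KO_S47A in the blocked test. It stood at 7.91, 7.97 and 7.34 CPM in KO_S47A libraries 1, 2 and 3, against 14.7, 12.5 and 10.9 in KO_WT. The KO_S47A libraries lay close together and below all of KO_WT, whose library 3 was the lowest of that line. The log2 fold change was −0.72 (95% interval −0.97 to −0.46), with an edgeR adjusted p of 0.214 without a block and 0.0271 with it. KO had 5.65 ± 0.439 CPM and Scramble 20.9 ± 0.133 CPM (SD, n = 3 each). Against the same KO libraries, WLS differed by 0.46 in KO_S47A (edgeR adjusted p = 0.274, or 0.00991 with the block) and rose by 1.17 in KO_WT (edgeR adjusted p = 0.000964). The mean of the S47A line lay between those of KO and KO_WT.

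EPHA6, a receptor of the ephrin family of contact-dependent signals, was higher in KO_S47A in the blocked test. It stood at 19.9, 19.02 and 13.98 CPM in KO_S47A libraries 1, 2 and 3, against 10.2, 9.40 and 6.90 in KO_WT. Library 3 was the lowest of both lines, and the groups did not overlap. The log2 fold change was 1.00 (95% interval 0.57 to 1.43), with an edgeR adjusted p of 0.998 without a block and 0.00357 with it. KO stood between the addback lines at 13.9 ± 1.74 CPM, and Scramble had 17.96 ± 1.51 CPM (SD, n = 3 each). The Scramble mean was thus near the KO_S47A mean of 17.6 CPM and above the KO_WT mean of 8.82 CPM. Against KO, EPHA6 differed by 0.34 in KO_S47A (edgeR adjusted p = 0.357, or 0.0544 with the block). In KO_WT it differed from KO by −0.66 (edgeR adjusted p = 0.625, or 0.0489 with the block, which called 0.0351% of all genes lower there). CCDC85A, chosen after its values were seen, had 1.63, 1.16 and 1.37 CPM in KO_S47A and 2.55, 3.25 and 2.40 CPM in KO_WT (log2 fold change −0.98, 95% interval −1.41 to −0.54), and the groups did not overlap. In Scramble CCDC85A stood at 27.3 ± 6.05 CPM, above all 6 addback libraries, and in KO at 0.735 ± 0.125 CPM, below all 6 (SD, n = 3 each). Against KO, CCDC85A differed by 0.92 in KO_S47A (edgeR adjusted p = 0.274, or 0.0109 with the block). It rose by 1.90 in KO_WT (edgeR adjusted p = 0.00247). GPRASP1, a sorting protein of G protein-coupled receptors that DESeq2 called, had 1.74, 1.52 and 1.19 CPM in KO_S47A and 0.377, 0.478 and 0.575 CPM in KO_WT, with no overlap (edgeR log2 fold change 1.63, 95% interval 0.88 to 2.39).

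The rule for named genes filled up each direction to 12 with the genes of smallest unadjusted p among those with at least 5 CPM in the higher line and ranges that did not overlap. Ranges did not overlap for 2.87% of all tested genes on the higher side and 2.82% on the lower side. Besides PCDH7 and EPHA6 these were CBLN2, PTPN14, CCDC163P, OSBPL8, CEP164, ZBTB37, CECR7, DERL3, RALGAPA2 and TTC7A on the higher side. Their adjusted p was 0.998 by edgeR without a block, and they are given as values. CBLN2, a secreted organizer of synapses, had 66.8, 66.1 and 96.7 CPM in KO_S47A and 48.4, 49.99 and 37.1 CPM in KO_WT (log2 fold change 0.76, 95% interval 0.38 to 1.14). PTPN14, a tyrosine phosphatase that restrains YAP, had 9.62, 10.03 and 7.81 CPM in KO_S47A and 5.19, 5.33 and 7.002 CPM in KO_WT (log2 fold change 0.65, 95% interval 0.26 to 1.03). DERL3, a derlin that helps return misfolded proteins from the endoplasmic reticulum, had 32.8, 30.9 and 15.03 CPM in KO_S47A and 14.9, 13.01 and 11.9 CPM in KO_WT (log2 fold change 0.98, 95% interval 0.32 to 1.65). Its KO_S47A library 3 was near the KO_WT level while libraries 1 and 2 were well above it. OSBPL8, a lipid transfer protein at contacts of the endoplasmic reticulum and plasma membrane, had 228, 223 and 228 CPM in KO_S47A and 186, 189.7 and 151 CPM in KO_WT (log2 fold change 0.36, 95% interval 0.13 to 0.59). The others were CCDC163P at 0.74 (0.30 to 1.19), the cilium gene CEP164 at 0.55 (0.19 to 0.91), ZBTB37 at 0.67 (0.23 to 1.11), CECR7 at 0.46 (0.15 to 0.76), RALGAPA2 at 0.42 (0.13 to 0.71) and TTC7A at 0.38 (0.11 to 0.64).

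On the lower side, besides PNPLA2 and WLS, the rule gave TYW3, CRYZ, TRMT61B, HDAC8, IFT74, BCL3, CNTNAP2, RSRC2, CCDC69 and ANP32E, again with an edgeR adjusted p of 0.998. BCL3, a nuclear cofactor of NF-kB, had 3.46, 3.02 and 4.12 CPM in KO_S47A and 5.23, 4.52 and 6.001 CPM in KO_WT (log2 fold change −0.57, 95% interval −0.99 to −0.16). HDAC8, a deacetylase of the cohesin cycle, had 20.7, 18.5 and 23.2 CPM in KO_S47A and 25.2, 26.7 and 25.3 CPM in KO_WT (log2 fold change −0.31, 95% interval −0.52 to −0.10). CNTNAP2, a neuronal adhesion protein, had 5.82, 5.36 and 4.62 CPM in KO_S47A and 7.03, 6.82 and 6.68 CPM in KO_WT (log2 fold change −0.38, 95% interval −0.65 to −0.10). The estimate of each was under 2-fold. The remaining genes were within a narrow band, with CRYZ, a quinone reductase, at −0.30 (−0.51 to −0.10), the tRNA-modifying enzymes TYW3 and TRMT61B at −0.27 (−0.43 to −0.10) and −0.29 (−0.49 to −0.10), IFT74 at −0.25 (−0.43 to −0.07), RSRC2 at −0.21 (−0.36 to −0.06), CCDC69 at −0.38 (−0.66 to −0.10) and ANP32E, a histone chaperone, at −0.23 (−0.40 to −0.06).

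Among the regulators and partners of ATGL, the levels of the 2 lines overlapped. ABHD5, the coactivator, had 30.04, 28.9 and 32.2 CPM in KO_S47A and 32.2, 31.98 and 30.7 CPM in KO_WT (log2 fold change −0.06, 95% interval −0.25 to 0.13). HILPDA, an inhibitor listed under its older symbol C7orf68, had 32.4, 32.6 and 55.6 CPM in KO_S47A and 33.8, 38.3 and 59.2 CPM in KO_WT (log2 fold change −0.12, 95% interval −0.78 to 0.53), with library 3 the highest of both lines. The inhibitor G0S2 had 0 counts in all 6 libraries, and a count of 0 allows up to 3 counts, or 0.0546 to 0.0601 CPM in KO_S47A and 0.0626 to 0.0723 CPM in KO_WT, for counting error only. Expression of G0S2 was thus not detectable at this depth in either line. LIPE, hormone-sensitive lipase, had 2.09, 1.63 and 2.24 CPM in KO_S47A and 1.90, 2.87 and 2.38 CPM in KO_WT (log2 fold change −0.26, 95% interval −0.78 to 0.25). MGLL, monoglyceride lipase, had 28.1, 28.7 and 31.4 CPM in KO_S47A and 28.1, 27.7 and 31.1 CPM in KO_WT (log2 fold change 0.02, 95% interval −0.25 to 0.29). The intervals of ABHD5 and MGLL lie wholly within 2-fold. The droplet coat PLIN3 had 84.1, 84.7 and 104 CPM in KO_S47A and 93.2, 97.7 and 108 CPM in KO_WT (log2 fold change −0.13, 95% interval −0.41 to 0.14). PLIN2, the coat that usually marks droplets, was barely detected, with 0.0926, 0.131 and 0.504 CPM in KO_S47A and 0.0209, 0.239 and 0.149 CPM in KO_WT.

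The lipolysis and lipid droplet list had 20 of 27 members tested, PNPLA2 among them. Its median log2 fold change was −0.07, beside 0.00 over all genes tested, and 0 members were called. At an unadjusted p under 0.05 there were 2 lower, PNPLA2 and ABHD6, a monoglyceride lipase at −0.20 (−0.39 to −0.00045), beside 0.856% of all genes. Of the 20, 16 had an interval wholly within 2-fold.

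No gene of fatty acid oxidation or of the PPAR targets was called. CPT1A, the gate of mitochondrial fatty acid import, had 240.4, 225 and 257 CPM in KO_S47A and 251, 241 and 251 CPM in KO_WT (log2 fold change −0.04, 95% interval −0.23 to 0.15). The PPAR targets PDK4, ANGPTL4, LPL and CD36 all lay under 1 CPM in these 6 libraries. PDK4, a brake on glucose oxidation, did not overlap, with 0.111, 0.244 and 0.0807 CPM in KO_S47A and 0.0209, 0.0718 and 0.0213 CPM in KO_WT (log2 fold change 1.91, 95% interval −0.28 to 4.11). PDK4 rests on few reads in each library, and its interval is wide. PPARA, the receptor, had 21.2, 21.2 and 15.9 CPM in KO_S47A and 17.4, 17.96 and 18.004 CPM in KO_WT (log2 fold change 0.13, 95% interval −0.18 to 0.44). PPARGC1A, a coactivator of mitochondrial genes, had 1.11, 1.46 and 2.08 CPM in KO_S47A and 2.05, 1.87 and 2.96 CPM in KO_WT (log2 fold change −0.57, 95% interval −1.16 to 0.03), and the lines overlapped. It was lower in KO_S47A at each number, with an edgeR unadjusted p of 0.0189 and an adjusted p of 0.488 with the block.

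FASN, fatty acid synthase, had 643, 644 and 1158 CPM in KO_S47A and 583, 656 and 1132 CPM in KO_WT (log2 fold change 0.04, 95% interval −0.62 to 0.71). The 2 lines were close at each number, while library 3 stood well above libraries 1 and 2 in both. SCD, the desaturase, had 1084, 1034 and 1232 CPM in KO_S47A and 1027, 1066 and 907 CPM in KO_WT (log2 fold change 0.16, 95% interval −0.09 to 0.41). DGAT1 and DGAT2 make the triglyceride that ATGL breaks down, and differed by −0.01 (−0.22 to 0.20) and −0.30 (−0.83 to 0.23).

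**Figure D3:**
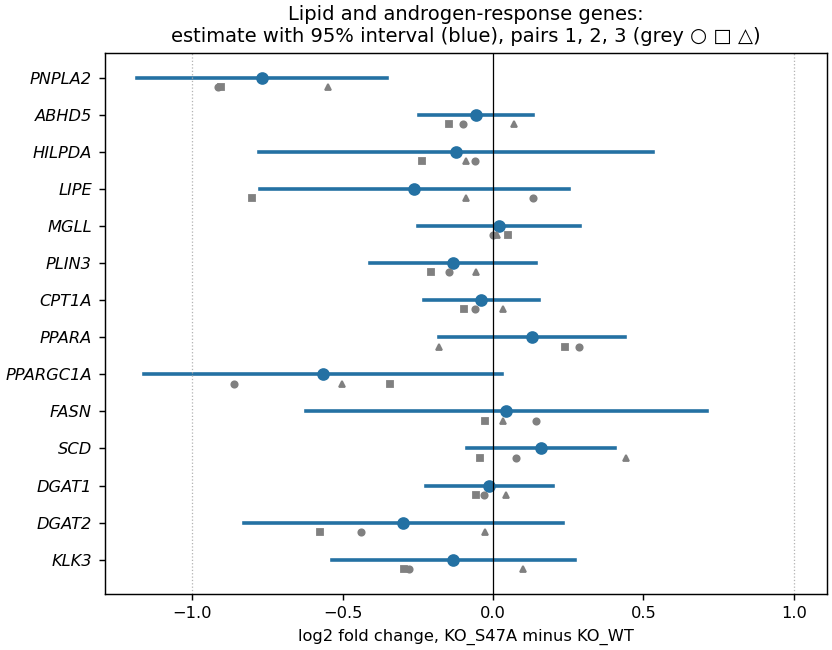
Log2 fold change of KO_S47A minus KO_WT for lipid and androgen-response genes, with 95% intervals of the fit without a block (blue) and the differences of the same-numbered library pairs 1, 2 and 3 (grey circle, square and triangle). Dotted lines mark a 2-fold difference. PNPLA2 is the only gene drawn whose interval does not reach 0.

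No member of the lipid lists was called, and their medians lay close to that of all genes. The median log2 fold change was −0.01 over 39 fatty acid oxidation genes, 0.01 over 26 PPAR and PGC-1 targets, 0.06 over 21 uptake and activation genes and 0.02 over 24 fatty acid synthesis genes. It was 0.04 over 28 cholesterol synthesis genes and −0.06 over 29 triglyceride and phospholipid synthesis genes. Without the block, these lists held 1 gene lower and 3 higher at an unadjusted p under 0.05, beside 0.856% and 1.31% of all genes. The lower one was EHHADH, a peroxisomal enzyme of fatty acid oxidation that is also listed as a PPAR target, with 2.22, 3.51 and 4.08 CPM in KO_S47A and 3.70, 4.47 and 5.94 CPM in KO_WT (log2 fold change −0.53, 95% interval −1.01 to −0.05), and it was lower in KO_S47A at each number though the ranges overlapped. The higher ones were ACACB, the acetyl-CoA carboxylase of the mitochondrial surface, at 0.35 (0.02 to 0.69), MVD, an enzyme of the mevalonate pathway, at 0.21 (0.01 to 0.42), and STARD4, a cholesterol transfer protein, at 0.58 (0.15 to 1.01). With the block, the counts higher and lower at an unadjusted p under 0.05 were 0 and 2 for oxidation, 2 and 2 for PPAR and PGC-1 targets, 1 and 1 for uptake and activation, 2 and 1 for fatty acid synthesis, 2 and 1 for cholesterol synthesis and 0 and 5 for triglyceride and phospholipid synthesis, beside 5.41% higher and 3.88% lower of all genes. In the blocked fit the 5 lower of 29 triglyceride and phospholipid synthesis genes were thus a larger share than among all genes, though none was called. Among the smallest p in that fit were those of LRP1, a lipoprotein receptor, at 0.38 (unadjusted p = 0.00204), ME1, malic enzyme, at 0.34 (unadjusted p = 0.0067) and SLC27A2, a fatty acid transporter, at −0.32 (unadjusted p = 0.00835). These 7 genes were named after their values were seen. For fatty acid oxidation 37 of the 39 intervals lay within 2-fold.

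Energy metabolism gave medians of −0.03 over 26 genes of the tricarboxylic acid cycle, −0.05 over 50 nuclear respiratory chain genes and −0.05 over 28 glycolysis genes. All 50 respiratory chain and all 28 glycolysis intervals lay within 2-fold. None of these energy genes had an unadjusted p under 0.05 without the block, beside 2.17% of all genes. With the block 3 were higher in the tricarboxylic acid cycle, beside 5.41% of all genes. In that fit 3 were lower in the respiratory chain and 1 in glycolysis, beside 3.88% of all genes. The androgen response was likewise close, with KLK3, the prostate-specific antigen gene, at −0.13 (−0.54 to 0.27) and a median of −0.07 over 32 androgen response genes, of which 0 had an unadjusted p under 0.05 without the block and 4 were lower with it, beside 3.88% of all genes.

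The largest list median on the higher side belonged to chaperones of the endoplasmic reticulum, where secreted and membrane proteins fold. When unfolded proteins build up there, the transcription factors ATF6 and XBP1 raise these genes through a promoter motif, the ER stress response element. Its letters, CCAAT followed by 9 bases of any kind and then CCACG, were searched on both strands in RefSeq promoters of GRCh38.p14, from 250 bases before to 50 after the start. They occurred in 7 of the 22 chaperone genes with a promoter entry (31.8%), CALR, CANX, CRELD2, HSP90B1, HSPA5, PDIA6 and XBP1, beside 25 of 27305 promoters in all (0.0916%). The 250 bases before the start are printed for HSPA5 (chr9:125241344-125241593, − strand), which had the highest fold change of the list, and for HSP90B1 (chr12:103930160-103930409, + strand), another major chaperone, with the element in capitals.
HSPA5: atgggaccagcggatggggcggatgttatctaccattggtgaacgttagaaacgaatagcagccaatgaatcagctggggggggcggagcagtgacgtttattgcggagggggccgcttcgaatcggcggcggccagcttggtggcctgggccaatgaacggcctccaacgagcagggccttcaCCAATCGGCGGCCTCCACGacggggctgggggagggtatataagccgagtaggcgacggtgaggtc
HSP90B1: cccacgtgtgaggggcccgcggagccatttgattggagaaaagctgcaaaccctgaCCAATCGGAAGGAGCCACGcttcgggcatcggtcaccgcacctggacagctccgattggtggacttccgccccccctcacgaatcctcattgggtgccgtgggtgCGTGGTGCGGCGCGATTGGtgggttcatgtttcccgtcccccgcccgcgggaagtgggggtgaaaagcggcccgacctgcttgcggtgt
HSPA5 holds 1 copy and HSP90B1 holds 2, of which the second reads on the opposite strand. A match is a description of these letters and not a site shown to be bound. The search used no expression values, so the share of chaperone genes with a match describes the list and not these libraries.

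HSPA5, the chaperone BiP, had 6848, 7374 and 2375 CPM in KO_S47A libraries 1, 2 and 3, against 3369.7, 2977 and 2127 in KO_WT. KO_S47A libraries 1 and 2 were far above their KO_WT counterparts, and library 3 was the lowest of each line and differed little. The log2 fold change was 0.97 (95% interval 0.11 to 1.82), with an edgeR adjusted p of 0.998 without a block and 0.439 with it. HSP90B1, the chaperone GRP94, had 2443, 2509 and 1371 CPM in KO_S47A and 1583, 1446 and 1341 CPM in KO_WT (log2 fold change 0.53, 95% interval 0.06 to 1.01). HYOU1, a nucleotide exchange factor of BiP, had 2099, 2241 and 841 CPM in KO_S47A and 1114, 997 and 752 CPM in KO_WT (log2 fold change 0.86, 95% interval 0.13 to 1.58). CRELD2, a stress-induced secreted protein, had 269, 274 and 110.0 CPM in KO_S47A and 157, 134 and 102 CPM in KO_WT (log2 fold change 0.73, 95% interval 0.04 to 1.42). All 3 had the same shape over the libraries, with KO_S47A 1 and 2 high and both libraries numbered 3 low. HERPUD1, which serves the degradation of misfolded proteins and was called in the blocked fit of the 2 lines alone, had 756, 753 and 168 CPM in KO_S47A and 453, 418 and 102 CPM in KO_WT (log2 fold change 0.79, 95% interval −0.85 to 2.43). With the replicate block over all lines, HERPUD1 was at 0.78 (95% interval 0.29 to 1.26, edgeR adjusted p = 0.439).

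All 24 chaperone genes had a log2 fold change above 0, between 0.13 for CANX, calnexin, and 0.97 for HSPA5, with a median of 0.47 beside 0.00 over all genes. No member was called with or without the block. At an unadjusted p under 0.05 there were 5 higher without the block, beside 1.31% of all genes, and 16 higher with it, beside 5.41%. All 24 were higher in each of the 3 same-numbered pairs, beside 18.2% of all genes, with pair medians of 0.46, 0.64 and 0.18. Members of such a list tend to move together and are not independent measurements. Relative to the mean of libraries 1 and 2, library 3 lay lower, at a median log2 difference of −0.89 in KO_S47A and −0.53 in KO_WT. Without the libraries numbered 3 the list median was 0.54, and 18 members were higher at an unadjusted p under 0.05, beside 7.79% of all genes.

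Genes driven by ATF4, the factor that answers amino acid shortage and endoplasmic reticulum stress, also lay above 0 throughout. TRIB3, a pseudokinase target of ATF4, had 513, 540.3 and 123 CPM in KO_S47A libraries 1, 2 and 3, against 363, 328 and 67.9 in KO_WT. ASNS, asparagine synthetase, had 758, 755 and 192 CPM in KO_S47A and 604, 543 and 128 CPM in KO_WT (log2 fold change 0.42, 95% interval −1.22 to 2.05). DDIT3, the stress factor CHOP, which the blocked fit of the 2 lines alone called, had 161, 169 and 27.7 CPM in KO_S47A and 90.7, 72.7 and 15.2 CPM in KO_WT (log2 fold change 1.00, 95% interval −0.80 to 2.81). With the replicate block over all lines, DDIT3 was at 0.99 (95% interval 0.33 to 1.65, edgeR adjusted p = 0.440). In each of the 3 genes KO_S47A was higher at every number, but library 3 of both lines was several times lower than libraries 1 and 2, so the ranges overlapped. TRIB3 had a log2 fold change of 0.63 (−0.97 to 2.23) in the fit without a block, an interval that reaches past 0 on both sides. SLC7A11, the cystine carrier, had 594, 576 and 146 CPM in KO_S47A and 424, 379 and 81.9 CPM in KO_WT (log2 fold change 0.57, 95% interval −1.17 to 2.32). SLC7A1, a carrier of arginine and lysine, had 976, 996 and 553 CPM in KO_S47A and 728, 703 and 454 CPM in KO_WT (log2 fold change 0.42, 95% interval −0.20 to 1.04).

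The 44 members ranged between 0.10 for ATF5 and 1.08 for ATF3, both transcription factors, with a median of 0.33. None was called with or without the block. At an unadjusted p under 0.05 there were 0 without the block and 31 higher with it, beside 5.41% of all genes. Of the 44, 41 were higher in all 3 pairs, beside 18.2% of all genes, with pair medians of 0.27, 0.40 and 0.35. The gap of library 3 to libraries 1 and 2, a median of −1.35 in KO_S47A and −1.28 in KO_WT, was larger than the difference between the lines. Without the libraries numbered 3 the median was 0.33, and 27 were higher at an unadjusted p under 0.05, beside 7.79% of all genes. The letters TGATGNAAT, a form of the element that ATF4 binds, occurred in 1 of the 29 listed genes with a promoter entry (FGF21) and in 1.22% of all promoters.

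**Figure D4:**
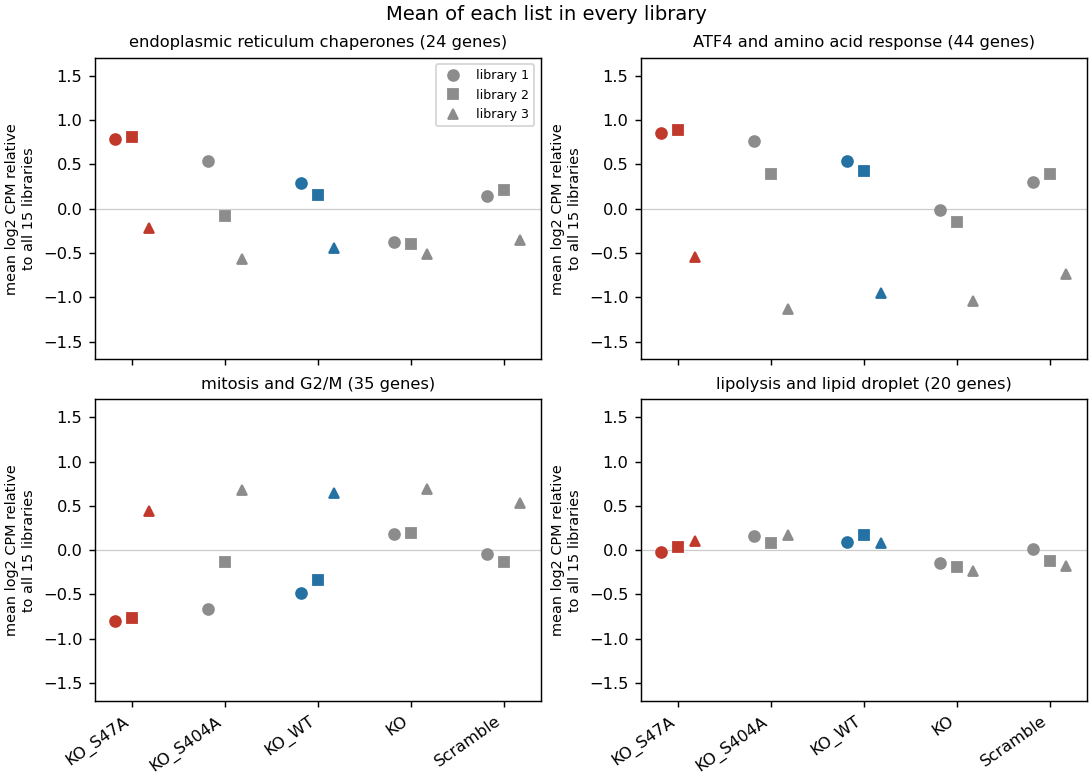
Mean log2 CPM of 4 gene lists in each of the 15 libraries, relative to the mean over all libraries (y axis), by line (x axis) and library number (shape), with KO_S47A in red and KO_WT in blue. KO_S47A lies above KO_WT at each number for chaperones and the ATF4 response and below it for mitosis, while libraries numbered 3 stand apart from 1 and 2 in the same direction in both lines. Lipolysis genes differ little.

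Cell division genes lay on the other side of 0. MKI67, the proliferation antigen, had 92.7, 94.01 and 216 CPM in KO_S47A libraries 1, 2 and 3, against 92.2, 99.3 and 305 in KO_WT. Library 3 was far above libraries 1 and 2 in both lines, and pairs 1 and 2 were nearly level. CCNB1, the mitotic cyclin, had 221, 216 and 493 CPM in KO_S47A and 289, 293 and 554 CPM in KO_WT (log2 fold change −0.29, 95% interval −1.11 to 0.53). PTTG1, securin, had 75.99, 81.9 and 148 CPM in KO_S47A and 111, 122 and 173 CPM in KO_WT (log2 fold change −0.41, 95% interval −1.02 to 0.21). Of 35 mitosis genes, 33 were lower in all 3 pairs, beside 17.7% of all genes, with a median log2 fold change of −0.29 and pair medians of −0.35, −0.44 and −0.18. None was called. At an unadjusted p under 0.05 there were 0 without the block and 15 lower with it, beside 3.88% of all genes.

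Genes of DNA replication went with them. PCNA, the polymerase clamp, had 151, 146 and 349 CPM in KO_S47A and 194, 206 and 407 CPM in KO_WT (log2 fold change −0.32, 95% interval −1.22 to 0.58), and MCM6, a helicase subunit, had 60.9, 56.9 and 141 CPM in KO_S47A and 75.6, 80.7 and 171 CPM in KO_WT (log2 fold change −0.34, 95% interval −1.31 to 0.63). Of 35 genes of G1/S and replication, 31 were lower in all 3 pairs, beside 17.7% of all genes, and the median was −0.20. None was called. At an unadjusted p under 0.05 there were 0 without the block and 7 lower with it, beside 3.88% of all genes. Library 3 stood above libraries 1 and 2 by a median of 1.21 in KO_S47A and 1.05 in KO_WT for mitosis genes, and by 1.13 in KO_S47A and 1.05 in KO_WT for replication genes, each larger than the difference between the lines. Without the libraries numbered 3 the medians were −0.39 for mitosis, with 20 lower at an unadjusted p under 0.05 beside 7.32% of all genes, and −0.29 for replication, with 11 lower beside the same 7.32%.

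**Figure D5:**
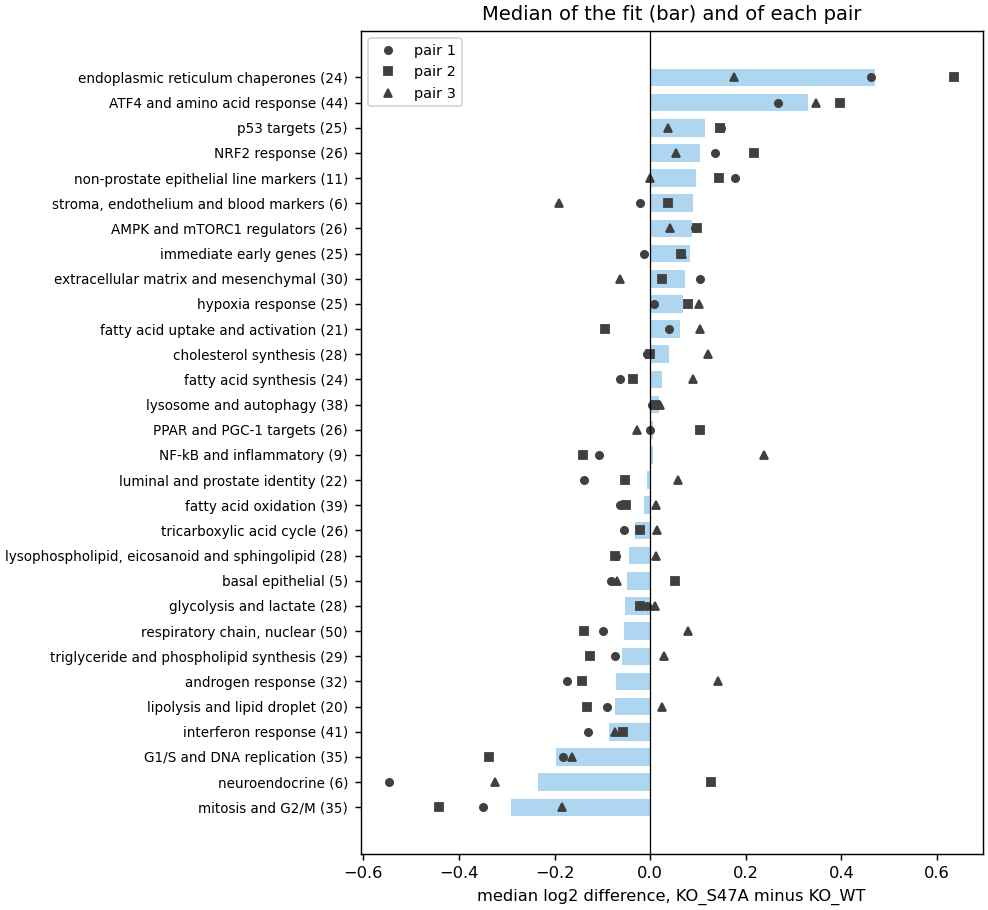
Median log2 difference of KO_S47A minus KO_WT for the 30 gene lists, from the fit without a block (bars) and within each same-numbered pair (points), with the number of genes tested in brackets. Chaperones and the ATF4 response lie highest and mitosis lowest, and the lipid and energy lists lie near 0.

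Against the knockout without addback, the addback lines stood as follows, with the KO libraries shared by both. The chaperone median was 0.85 in KO_S47A and 0.38 in KO_WT, and with the block 24 of 24 members were called higher in KO_S47A, beside 10.6% of all genes, and 0 in KO_WT, beside 0.0702%. The ATF4 list median was 0.78 in KO_S47A, with 39 of 44 called higher with the block, and 0.48 in KO_WT, with 0. For mitosis it was −0.67 in KO_S47A, with 33 of 35 called lower with the block beside 11.5% of all genes, and −0.36 in KO_WT, with 0 beside 0.0351%. Without the block none of these members was called in either line. A call in one line and none in the other does not show that the lines differ, which is tested by KO_S47A minus KO_WT above.

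The other lists had medians between −0.24, over 6 neuroendocrine genes, and 0.11, and no member was called. NRF2 targets of the antioxidant response had a median of 0.11 over 26 genes, with 14 higher in all 3 pairs, beside 18.2% of all genes. HMOX1, heme oxygenase, had 22.2, 25.7 and 12.1 CPM in KO_S47A and 15.6, 14.6 and 10.8 CPM in KO_WT (log2 fold change 0.55, 95% interval −0.04 to 1.14). With the block HMOX1 was at 0.51 (edgeR unadjusted p = 0.000532, adjusted p = 0.439). GCLM, SLC7A11, ME1 and UGDH were also higher in that fit at an unadjusted p under 0.05, and no NRF2 target was lower, beside 5.41% higher and 3.88% lower of all genes. The p53 targets had a median of 0.11 over 25 genes, with members on both sides of 0, and the interferon response −0.09 over 41. CDKN1A, named after its values were seen, had the largest estimate of the p53 targets, 0.71 (0.09 to 1.33). Its unadjusted p by edgeR was 0.0276, or 0.00496 with the block. It had 79.7, 94.0 and 34.3 CPM in KO_S47A and 48.3, 44.2 and 34.8 CPM in KO_WT, so the ranges overlapped. GADD45A, BBC3, TNFRSF10B and XPC were also higher with the block, at 0.54, 0.41, 0.30 and 0.21 (edgeR unadjusted p under 0.05). No p53 target was lower at that threshold, beside 5.41% higher and 3.88% lower of all genes. AMPK and mTORC1 regulators had 0.09 over 26 genes. TXNIP, a glucose-responsive arrestin, had 3.69, 4.48 and 5.77 CPM in KO_S47A and 2.41, 2.68 and 14.4 CPM in KO_WT, and KO_WT library 3 stood apart from the other 5.

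All 9 luminal prostate markers exceeded 10 CPM in all 6 libraries, with summed levels of 5735 to 7254 CPM in KO_S47A and 6472 to 6832 CPM in KO_WT. Of 17 markers of stroma, endothelium and blood, 13 were under 1 CPM in all 6 and 5 were at 0 (PECAM1, PTPRC, CD3E, DCN and COL1A2), with summed levels of 36.5 to 49.9 CPM in KO_S47A and 37.1 to 38.9 CPM in KO_WT. The 4 markers that reached 1 CPM were COL1A1, a collagen chain, VWF, a clotting protein of endothelium, the macrophage protein CD68 and PDGFRB, a stromal receptor. COL1A1 had 23.2, 19.96 and 15.6 CPM in KO_S47A and 14.3, 12.8 and 17.2 CPM in KO_WT (log2 fold change 0.41, 95% interval 0.01 to 0.81, unadjusted p = 0.0459). VWF had 14.7, 14.1 and 7.93 CPM in KO_S47A and 10.4, 10.95 and 5.81 CPM in KO_WT (log2 fold change 0.44, 95% interval −0.31 to 1.18, unadjusted p = 0.227, or 0.00132 with the block). CD68 and PDGFRB differed by −0.24 (−0.56 to 0.08) and −0.18 (−0.54 to 0.17). The ranges of the 2 lines overlapped in all 4 genes, none was called, and their part in the other results was not tested. Of basal markers KRT5, KRT15 and TP63 were at 0, and of neuroendocrine markers CHGB and INSM1 were. All 11 markers of other tissues, SOX10 and MLANA among them, were under 1 CPM, with ALB and AFP at 0. Counts in genes totalled 49885735 to 54933402 in KO_S47A and 41521069 to 47895553 in KO_WT.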

How the data were processed

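Poly(A) RNA libraries were made with a directional kit, per the labels' protocols. The authors deposited whole-number read counts per gene, not normalized, and FPKM values that they scaled by gene length and total counts. FPKM served only for gene lengths. The submitters' processing notes name CASAVA and STAR but no versions. The sources used here do not give build, annotation or strand setting, so overlapping, antisense or near-identical genes may share reads. The 5 entries of unassigned reads, 16.5% to 19.3% of the 6 libraries, were left out.

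In R 4.3.3, edgeR 4.0.16 (filterByExpr, TMM, quasi-likelihood, 1 mean per line over all 15 libraries, 10 residual degrees of freedom) tested 14246 genes, with a call at an adjusted p (Benjamini-Hochberg) under 0.05. Standard errors are the absolute log2 fold change over the square root of F. Alternatives were DESeq2 1.42.0, other scaling, no filter, the 2 lines alone, a replicate block and left-out libraries. Same-numbered libraries correlated at 0.36, 0.27 and 0.58, all above the 0.1 set for pairing, although libraries 1 and 2 also correlated across numbers (0.26 and 0.36). The libraries of a line differed by more than sampling noise (chi-square 8.11 to 182 per degree of freedom).

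Named genes are PNPLA2, 12 per direction by smallest p with at least 5 CPM in the higher line and ranges that do not overlap, and a list of lipid, androgen and stress genes. A few listed genes are not reported here and were left out of the lists and markers. Genes, lists and members were chosen with earlier results of these data known. Sequences come from RefSeq (GRCh38.p14) and GENCODE 29.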

Additional observations from a re-analysis of the deposited data

How the results depend on the processing

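For KO_S47A minus KO_WT, edgeR without a block called 0 genes, as it did with other size factors, with no filter, with the 2 lines alone and without any single library (0 to 0). DESeq2 called 4, the replicate block 3, the block with the 2 lines alone 7 (PCDH7, EPHA6, LAMP3, FIBIN, DDIT3 and HERPUD1 higher, PNPLA2 lower) and the fit without the libraries numbered 3 called 2 (PCDH7 and ZNF213). For KO_S47A minus KO, 1 call became 33 with DESeq2, 3150 with the replicate block, 2340 with the block and 2 lines, 3098 without the libraries numbered 3 and 1 to 15 without single libraries, with 15 reached without KO_S47A library 3. For KO_WT minus KO, 4 calls became 2 with the 2 lines alone, 8 with DESeq2, 15 with the replicate block, 104 with the block and 2 lines, 43 without the libraries numbered 3 and 3 to 5 without single libraries. PNPLA2 was −0.79 (adjusted p = 0.0426) with the block and 2 lines, and −0.98 to −0.67 without single libraries. The cause of these differences was not tested.

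Of 46 other named genes under 13 alternatives, 553 values kept their direction and call, 9 kept the direction and passed the threshold, and 30 reversed, in 12 genes that were not called. ANGPTL4 was 0.17 with the block and 0.11 with the block and 2 lines, and LPL was −0.082 and −0.29. Without the libraries numbered 3, PLIN2 was −0.17, LPL −1.15, CD36 0.14 and TXNIP 0.68. Without single libraries the log2 fold change ran from −0.44 to 0.16 for HILPDA (C7orf68), −0.034 to 0.074 for MGLL, −0.26 to 1.48 for PLIN2, −0.093 to 0.0071 for CPT1A, −0.38 to 1.08 for ANGPTL4, −1.34 to 0.41 for LPL and −1.85 to 0.17 for CD36. It ran from −0.30 to 0.40 for FASN, −0.083 to 0.044 for DGAT1, −0.015 to 0.83 for ASNS, −0.83 to 0.49 for MKI67 and −0.89 to 0.87 for TXNIP. Depth limits PLIN2, PDK4, ANGPTL4, LPL and CD36, which had under 1 CPM.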

Other observations

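LAMP3 and FIBIN, chosen after their values were seen, had wide ranges within each line. LAMP3, a lysosomal membrane protein, had 27.6, 27.9 and 0.847 CPM in KO_S47A and 9.04, 5.43 and 0.255 CPM in KO_WT. FIBIN had 18.5, 18.6 and 0.989 CPM in KO_S47A and 6.30, 4.35 and 0.277 CPM in KO_WT. In both genes KO_S47A was above KO_WT at each number, and library 3 of each line was far below its libraries 1 and 2. The edgeR adjusted p was 0.998 for LAMP3 and FIBIN without a block. NR4A2, an orphan nuclear receptor induced as an immediate early gene and chosen after its values were seen, had 0.371, 0.563 and 0.262 CPM in KO_S47A and 0.0418, 0.0239 and 0.0213 CPM in KO_WT, all under 1 CPM. PROS1, the anticoagulant protein S and also chosen after its values were seen, had 1.69, 1.28 and 2.66 CPM in KO_S47A and 3.68, 3.25 and 4.04 CPM in KO_WT (log2 fold change −0.97, 95% interval −1.58 to −0.35), with no overlap. The knockout libraries had 1.98 ± 0.733 CPM of PROS1 and the Scramble libraries 1.25 ± 0.166 CPM (SD, n = 3 each).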
